A study of Mus musculus with 6 samples.

Results

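The genes described are 34 components and readouts of bone morphogenetic protein (BMP) and transforming growth factor beta (TGF-beta) signalling, taken by name: 10 ligands, 9 receptors, 7 Smads, 4 Id targets and 4 antagonists, out of 26586 genes in the count table. All 34 were in the table, 33 passed the filter on low counts, and the antagonist Grem1 did not. They were measured by ribosomal RNA-depleted total RNA sequencing in cells sorted from the endometrial epithelium of 3 mice of the strain Axin2rtTA; tetOH2BJGFP, in which the Axin2 promoter drives the doxycycline-dependent activator rtTA and rtTA switches on a histone-GFP fusion. Ovaries of all mice were removed at an age of 4 weeks, doxycycline followed after 2 weeks of rest, and uteri were taken 4 days after doxycycline, with an age of 6 weeks in the labels. GFP-positive cells are labelled Axin2+ and GFP-negative cells Axin2-, with 3 libraries of each, numbered by mouse, although the labels also speak of pooling the cells of the mice. The reporter marks cells in which the Axin2 promoter was active while doxycycline acted, and no untreated or unsorted library was part of the comparison.

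In this pathway, secreted ligands assemble type II and type I serine/threonine kinase receptors, which phosphorylate receptor Smads. BMP receptors act mainly through Smad1, Smad5 and Smad9, TGF-beta and activin receptors mainly through Smad2 and Smad3, and both arms share Smad4. Smad6 and Smad7 restrain the receptors, Id1 to Id4 are classical BMP-responsive transcripts, and extracellular antagonists such as Noggin capture BMPs before they bind. In the uterus BMP and activin signals are best known for their part in implantation and decidualization, and TGF-beta signals for stromal and smooth muscle development.

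Axin2, a Wnt target whose promoter drives the reporter, was read first as a check on the labels. In mice 1, 2 and 3 the libraries labelled Axin2- had 369, 357 and 356 CPM of it (CPM, counts scaled to a common depth with TMM factors), and those labelled Axin2+ had 164, 243 and 299 CPM. The transcript was therefore lower in the libraries labelled Axin2+ in 3 of 3 mice, against the direction of the labels, although the difference did not pass the test (log2 difference -0.61 ± 0.21 SE, edgeR adjusted p = 0.0710). The libraries are named by their labels throughout, mice are always given in the order 1, 2, 3, and a log2 difference is that of the libraries labelled Axin2+ minus those labelled Axin2-. A mouse number is that of the label, and given the pooling it may not stand for a single animal. Axin2 passed in 2 of 17 other settings, DESeq2 (0.0337) among them, and the adjusted p ranged from 0.0290, without the mouse 3 library labelled Axin2+, to 0.241.

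Markers of several cell types moved with the fractions. Over all 16896 genes tested, 14.5% were called higher and 12.8% lower in the libraries labelled Axin2+. All 18 epithelial markers rose in the libraries labelled Axin2+, where they summed to 2864 to 4077 CPM against 248 to 364, while 12 of 15 stromal fibroblast markers fell (8661 to 23239 CPM in the libraries labelled Axin2-, 2994 to 4364 in those labelled Axin2+) and 16 of 18 smooth muscle and pericyte markers fell (3959 to 9113 against 566 to 897 CPM). Endothelial markers rose for 9 of 14 tested (221 to 274 against 458 to 821 CPM), macrophage and leukocyte markers for 10 of 15, with 3 lower (210 to 619 against 890 to 4916 CPM), mesothelial markers for 4 of 7, with 1 lower (175 to 226 against 181 to 488 CPM), and uterine gland markers for 3 of 4 (6.71 to 14.6 against 65.0 to 85.4 CPM). The gland markers Prss29 and Spink1 and the mesothelial marker Calb2 had no read in any library, and the gland marker Prss28 had none in the libraries labelled Axin2-. Krt8 and Krt18, keratins of simple epithelia, had log2 differences of 3.32 and 3.25, Myh11 and Mylk, of smooth muscle, -5.86 and -2.74, and the fibroblast collagens Col3a1 and Col1a1 -2.58 and -3.02. The endothelial and mesothelial lists were not uniform. Over the 17 other settings Cdh5 of the endothelial list lay at -0.99 to -0.62, passing in 5, against 3.74 to 4.27 for Sox17 of that list. Wt1 of the mesothelial list lay at -1.28 to -0.91 against 2.29 to 3.46 for Upk3b. Whether each listed gene marks its named cell type in this tissue was not tested. The mouse 2 library labelled Axin2- stood apart, with 761 CPM of Col1a1 against 4611 and 4711 CPM in mice 1 and 3 and a fibroblast marker sum of 8661 against 23239 and 19333 CPM. The calls of Col1a1 and Col3a1 were lost without the mouse 1 (edgeR adjusted p = 0.0582 and 0.0622) or mouse 3 (0.0633 and 0.0646) library labelled Axin2-, the mouse 2 library labelled Axin2+ (0.0714 and 0.0766), mouse 1 (0.107 and 0.0913) or mouse 3 (0.0889 and 0.115). Both fractions carried the label of epithelial cells, and epithelial markers were low in the one labelled Axin2-. Library totals ran from 49714402 to 59597315 counts, and ribosomal RNA genes took 14.7 to 23.8% of them, with the highest share in the mouse 3 library labelled Axin2-. In such sorted bulk samples, fewer cells of a type and less RNA per cell cannot be told apart, and the part of these markers in the results on the signalling genes was not tested.

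Most of the signalling genes that differed were lower in the libraries labelled Axin2+. Of the 33 tested, 13 fell (39.4%), 2 rose (6.06%) and 18 did not pass, where 12.8% of all 16896 genes tested were called lower and 14.5% higher, together 27.3%. The ligands Inhba, Inhbb, Bmp2, Bmp4, Tgfb2 and Tgfb3, the co-receptor Tgfbr3, the Smads Smad3, Smad4 and Smad7, the targets Id3 and Id4 and the antagonist Nog fell, and the receptor Bmpr1b and the target Id2 rose. The median log2 difference of the 33 was -0.39 against -0.0077 over all genes tested. By overlap of the TMM-scaled CPM alone, 18 of the 33 had every library labelled Axin2+ below every library labelled Axin2-, and 3 had the opposite order, beside 23.2% and 23.9% of all genes. Here and below, overlap was read at this scaling only, and a narrow gap can close under another. With mouse as a replicate block 9 fell and 3 rose, since Bmp2, Bmp4, Smad3 and Smad4 no longer passed and Bmp6 did.

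The 15 calls were not equally firm. Of these, 8 passed under each of 14 planned other settings (other scalings, filters, DESeq2, the mouse block and each library left out in turn): Tgfb2, Inhba, Inhbb, Tgfbr3, Bmpr1b, Id3, Id4 and Nog. The other 7 calls, those of Bmp2, Bmp4, Tgfb3, Smad3, Smad4, Smad7 and Id2, were lost in at least 1 of them. Scaled by library size only, which raises the median difference of all genes by 0.17 on the log2 scale, 8 genes fell. Without 1 library, the falls numbered 8 (mouse 1, labelled Axin2-), 7 (mouse 3, labelled Axin2-) and 7 (mouse 2, labelled Axin2+) where they moved most. When a whole mouse was left out, only Tgfbr3 and Id3 passed each time. Without mouse 1, 2 or 3 the count of genes that fell was 7, 4 and 5, and the count that rose was 0 without mouse 1 and 0 without mouse 2. In the authors' deposited table, which holds 32 of the genes, 2 were higher and 14 lower, and 31 had the same call as here. The exception was Bmpr1a, with an FDR of 0.0486 in the authors' deposited table and an edgeR adjusted p of 0.0535 here.

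**Figure D1:**
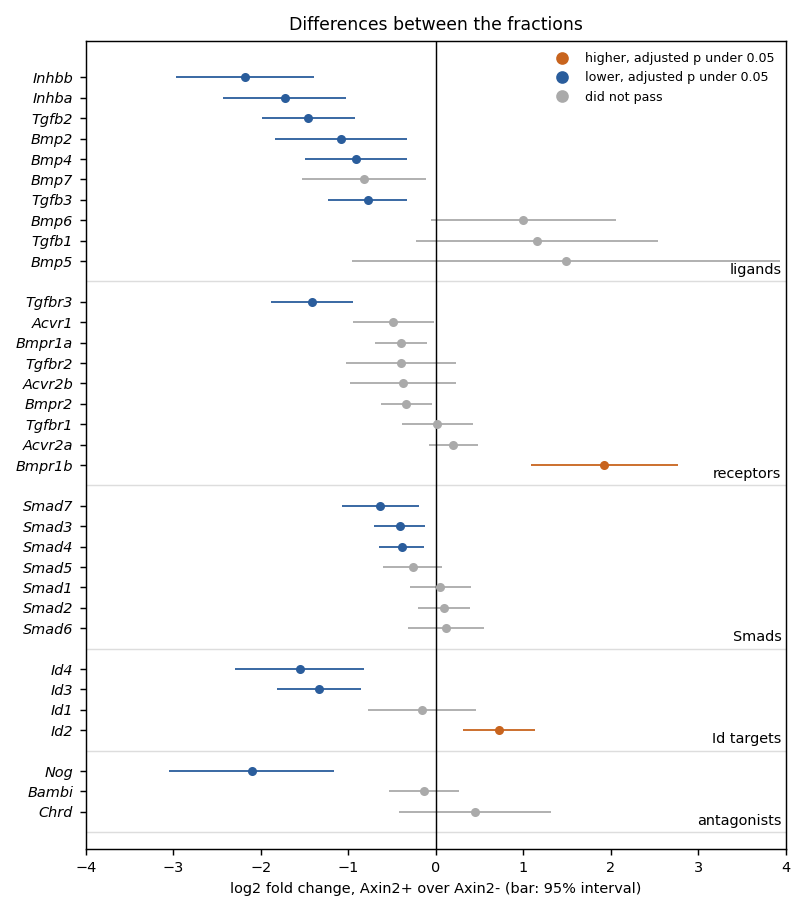
Log2 difference (libraries labelled Axin2+ minus libraries labelled Axin2-) of the 33 tested genes, grouped by role, with bars for the 95% interval from the edgeR quasi-likelihood fit and colour for the call. The 13 genes called lower lie between -0.39 (Smad4) and -2.18 (Inhbb), and the 2 called higher are Id2 at 0.72 and Bmpr1b at 1.93.

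Among the ligands 6 of 10 fell and none rose, and the steepest falls were those of the activin subunits. Inhbb, which encodes the beta-B subunit of activin B, stood at 37.0, 21.3 and 16.1 CPM in the libraries labelled Axin2- and at 4.86, 4.87 and 6.64 CPM in those labelled Axin2+. All 3 libraries labelled Axin2+ lay far below the lowest of the others, at a mean of 5.46 ± 1.03 CPM against 24.8 ± 10.9 CPM (SD, n = 3 each). That is a 4.54-fold lower level, with a log2 difference of -2.18 ± 0.34 (SE, edgeR adjusted p = 0.00394). Inhba, which encodes the beta-A subunit of activin A, stood at 14.4, 10.1 and 7.64 CPM against 2.97, 3.04 and 3.70 CPM. These fractions did not overlap either, and Inhba fell by 1.73 ± 0.30 on the log2 scale (edgeR adjusted p = 0.00643). In both genes the 3 libraries labelled Axin2+ were nearly level with each other while those labelled Axin2- spread about their mean, with mouse 1 the highest. Inhbb lies at chr1:119415465-119422248 on the minus strand and Inhba at chr13:16011851-16031621 on the plus strand (GRCm38). With mouse 2 left out the edgeR adjusted p was 0.0521 for Inhbb and 0.0731 for Inhba, and with mouse 1 left out it was 0.0537 for Inhba.

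The sequences upstream of these genes are shown because Inhba and Inhbb, with the receptor gene Bmpr1b and the target gene Id4, have the widest folds among the called genes with a RefSeq start (GRCm38.p6) whose 250 upstream bases hold no annotated exon. Each was searched on both strands for GGCGCC, a GC-rich element known from BMP-responsive enhancers of Id genes and for GTCTAGAC, a palindromic Smad-binding element; the letters of the searches do not overlap. Of the 34 genes 24 had a start in the promoter table, giving 29 windows, of which 8 held GGCGCC, while 9.59% of all 32851 windows did. Among these 8, the windows of Bmpr1a, Bmpr2, Id2 and Smad5 overlap annotated exons. The G and C content of the windows was not taken into account, so the 2 shares are not a test of enrichment. GTCTAGAC, present in 0.167% of all windows, was in none of the 29. A match is only a match of letters. Neither activin subunit window held either motif, and their base composition differed, with 43.2% G or C for Inhba (chr13:16011601-16011850, plus strand) and 68.0% for Inhbb (chr1:119422249-119422498, minus strand). Both are printed 5′ to 3′ on the strand of the gene and end at the base before the RefSeq start. No capitals appear because no motif was found.
Inhba: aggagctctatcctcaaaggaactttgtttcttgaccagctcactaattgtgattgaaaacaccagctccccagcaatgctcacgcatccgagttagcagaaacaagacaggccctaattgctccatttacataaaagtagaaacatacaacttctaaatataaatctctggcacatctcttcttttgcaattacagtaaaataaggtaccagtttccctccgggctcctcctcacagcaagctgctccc
Inhbb: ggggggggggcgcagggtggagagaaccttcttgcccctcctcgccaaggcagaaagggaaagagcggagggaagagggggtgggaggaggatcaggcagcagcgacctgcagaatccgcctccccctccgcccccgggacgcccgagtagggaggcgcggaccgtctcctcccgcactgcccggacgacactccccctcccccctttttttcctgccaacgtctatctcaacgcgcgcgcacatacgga

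The BMP ligands divided. Bmp2, a ligand required for decidualization, stood at 36.1, 70.2 and 40.4 CPM in the libraries labelled Axin2- and 31.2, 17.0 and 21.0 CPM in those labelled Axin2+. The fractions did not overlap, but mouse 1 came close, and the mouse 2 library labelled Axin2- was far above its group. Bmp2 fell by 1.08 ± 0.32 on the log2 scale (edgeR adjusted p = 0.0449). The call was lost with mouse as a block (adjusted p = 0.0993), with scaling by library size only (0.0713) and without the mouse 1 (0.0540), 2 (0.101) or 3 (0.0788) library labelled Axin2- or the mouse 2 (0.135) or 3 (0.106) library labelled Axin2+, and without mouse 2 (0.225) or 3 (0.159), in a range over all settings from 0.00631 to 0.225. Bmp4, a close relative of Bmp2, stood at 25.2, 40.9 and 36 CPM against 23.4, 15.2 and 15.5 CPM. It too was lower in 3 of 3 mice without overlap, again with mouse 1 the narrowest pair. Bmp4 fell by 0.92 ± 0.25 (SE, log2 scale, edgeR adjusted p = 0.0323). It did not pass with the block (0.0814), with library size only (0.0526) or without the mouse 2 (0.0869) or 3 (0.0976) library labelled Axin2- or the mouse 2 (0.116) or 3 (0.0846) library labelled Axin2+, or without mouse 2 (0.231) or 3 (0.199), in a range from 0.00523 to 0.231.

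Bmp7, per kilobase of exon the most abundant of the 10 ligands by the mean of either fraction (22.3 ± 5.92 and 12.6 ± 4.66 CPM per kb), did not pass. In the libraries labelled Axin2+ its level per kilobase was within its spread of that of Tgfb3, the next ligand (8.85 ± 1.56). Bmp7 did not lead in the mouse 1 library labelled Axin2+, at 8.16 CPM per kb against 13.5 for Tgfb1, 10.4 for Bmp4, 9.58 for Tgfb3 and 8.79 for Bmp2. Its libraries labelled Axin2- stood at 77.6, 117 and 74.4 CPM and those labelled Axin2+ at 32.8, 49.4 and 70.2 CPM, so that the fractions came apart by a narrow gap. The log2 difference was -0.82 ± 0.30 (edgeR adjusted p = 0.0827). It passed without the mouse 3 library labelled Axin2+ (-1.13, adjusted p = 0.0287) and in DESeq2 (0.0323), in a range from 0.0287 to 0.377. Bmp6, which encodes a BMP known for iron regulation in the liver, ran the other way with 10.1, 4.73 and 3.54 CPM against 17.2, 8.19 and 11.4 CPM. It was higher in each mouse although the fractions overlapped. Its log2 difference of 1.0 ± 0.45 had an edgeR adjusted p of 0.142 without the block and 0.0481 (log2 difference 1.08) with it, and 0.0392 (log2 difference 1.60) without the mouse 1 library labelled Axin2-, in a range up to 0.381. Bmp5 was nearly silent in the libraries labelled Axin2-, with 25 reads in each, and uneven in those labelled Axin2+, with 164, 60 and 4 reads. The high and low values of Bmp5 both lay in the fraction labelled Axin2+, and its log2 difference of 1.49 ± 1.04 did not pass (edgeR adjusted p = 0.327).

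Of the 3 TGF-beta ligands 2 fell, and the other did not pass. Tgfb2 (chr1:186622792-186705989, minus strand) stood at 60.4, 42.7 and 48.7 CPM in the libraries labelled Axin2- and 24.0, 14.8 and 16.5 CPM in those labelled Axin2+. The fractions lay well apart, and Tgfb2 fell by 1.46 ± 0.23 on the log2 scale (edgeR adjusted p = 0.00413, and 0.0502 without mouse 3). Tgfb3, at 46.5, 45.0 and 62.6 against 32.4, 23.9 and 33.5 CPM, also separated the fractions. It fell by 0.78 ± 0.19 (edgeR adjusted p = 0.0245), but not without the mouse 1 (0.0524) or 3 (0.0779) library labelled Axin2- or the mouse 2 (0.0814) library labelled Axin2+, nor without mouse 1 (0.0745), 2 (0.0958) or 3 (0.0911), in a range from 0.00416 to 0.0958. Tgfb1, the isoform best known from immune cells, stood at 23.3, 9.14 and 21.5 CPM against 68.0, 39.0 and 13.5 CPM. Mice 1 and 2 were higher in the library labelled Axin2+ and mouse 3 was lower, so the fractions overlapped. The log2 difference of Tgfb1 was 1.16 ± 0.59 with a 95% interval from -0.23 to 2.54 (edgeR adjusted p = 0.187), and it passed only without the mouse 3 library labelled Axin2+ (1.58, adjusted p = 0.0417), in a range up to 0.50.

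Tgfb1 and macrophage markers had the same order of mice within the libraries labelled Axin2+. C1qa, a complement gene of tissue macrophages chosen after its values were seen, stood at 15, 3.83 and 24.7 CPM in the libraries labelled Axin2- and 387, 170 and 59.5 CPM in those labelled Axin2+, and the 15 macrophage and leukocyte markers summed to 511, 210 and 619 against 4916, 2528 and 890 CPM. In the libraries labelled Axin2+ both measures and Tgfb1 were highest in mouse 1 and lowest in mouse 3. The mouse 3 library labelled Axin2+ had less Tgfb1 than 2 of those labelled Axin2-, and a higher marker sum than any of them. The 18 epithelial markers had the same order in the libraries labelled Axin2+, with sums of 4077, 3454 and 2864 CPM. In the libraries labelled Axin2- the orders differed, with Tgfb1 highest in mouse 1 and the macrophage and leukocyte sum highest in mouse 3. Lrrc33 (Nrros), which anchors latent TGF-beta on myeloid cells and was singled out after its values were seen, stood at 9.97, 4.07 and 7.95 against 59.3, 29.9 and 9.08 CPM and rose by a log2 difference of 2.16 ± 0.66 (edgeR adjusted p = 0.0481). That call was lost in 10 of 17 other settings, among them the mouse block (0.0756), no filter on low counts (0.0788), leaving out mouse 2 (0.215) or mouse 1 (0.125), and each single library left out except the mouse 3 library labelled Axin2+ (0.00841), in a range from 0.00114 to 0.215. The part of macrophage transcripts in the level of Tgfb1 was not tested. As a share of the summed CPM per kb of the 3 TGF-beta ligands, Tgfb1 took 16.0, 8.06 and 13.7% in the libraries labelled Axin2- and 49.6, 44.6 and 17.3% in those labelled Axin2+.

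**Figure D2:**
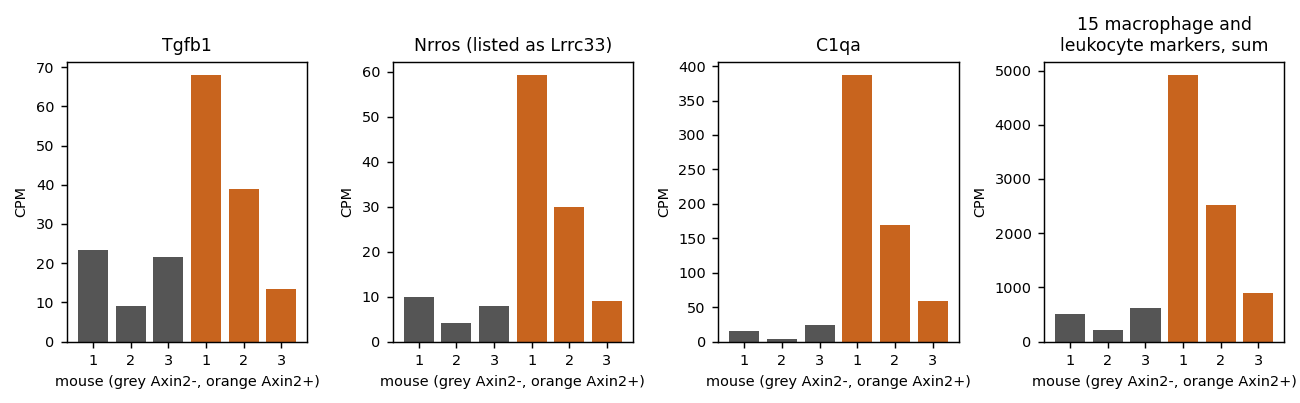
Levels (CPM, linear axes from 0) of Tgfb1, Nrros (listed as Lrrc33), C1qa and the sum of 15 macrophage and leukocyte markers, 1 bar per library, by mouse, grey for the label Axin2- and orange for Axin2+. In each panel the orange bars are highest in mouse 1 and lowest in mouse 3, from 68.0 to 13.5 CPM for Tgfb1 and from 4916 to 890 CPM for the marker sum.

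Of the 9 receptors, 1 rose and 1 fell (11.1% each, beside 14.5% and 12.8% of all genes tested). Neither share was above that over all genes. Bmpr1b (chr3:141837136-142169425, minus strand), a type I BMP receptor, stood at 3.13, 1.92 and 4.90 CPM in the libraries labelled Axin2- and 13.8, 12.3 and 11.7 CPM in those labelled Axin2+. Every library labelled Axin2+ was more than double the highest of the others, and the fraction means were 3.32 ± 1.5 and 12.6 ± 1.11 CPM (SD, n = 3 each). Bmpr1b rose 3.81-fold (log2 difference 1.93 ± 0.36 SE, edgeR adjusted p = 0.00816), and had an adjusted p of 0.0588 without mouse 1 and 0.0516 without mouse 2. Its relative Bmpr1a stood at 151, 132 and 125 against 93.5, 101 and 114 CPM. Here the libraries labelled Axin2+ were the low ones, without overlap, at a log2 difference of -0.40 ± 0.13 that just missed the threshold (edgeR adjusted p = 0.0535). Bmpr1a passed with RLE scaling (0.0489), upper-quartile scaling (0.0463), a filter of 1 CPM (0.0407) and DESeq2 (0.0464), in a range up to 0.350. Per kilobase of exon, Bmpr1b amounted to 2.21, 1.55 and 4.19% of Bmpr1a in the libraries labelled Axin2- and 15.8, 13.0 and 10.9% in those labelled Axin2+. Bmpr1a thus remained the more abundant transcript in all 6 libraries.

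Bmpr1b has several RefSeq starts on the minus strand of chromosome 3, and 1 upstream window (chr3:141982265-141982514) is printed because Bmpr1b was the receptor that rose. It has 46.8% G or C, and neither motif was found in it, so it has no capitals. This window lies inside the annotated gene (chr3:141837136-142169425), not upstream of it. Another exon-free window of Bmpr1b (chr3:141931589-141931838), also inside the gene, held neither motif either.
Bmpr1b: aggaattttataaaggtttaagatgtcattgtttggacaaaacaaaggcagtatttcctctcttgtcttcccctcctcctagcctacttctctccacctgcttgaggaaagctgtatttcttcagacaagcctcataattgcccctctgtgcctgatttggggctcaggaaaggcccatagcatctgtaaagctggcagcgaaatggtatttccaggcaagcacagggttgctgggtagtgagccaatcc

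Tgfbr3 (chr5:107106570-107289629, minus strand), or betaglycan, a co-receptor that presents TGF-beta ligands and binds inhibin, was the receptor that fell. It stood at 471, 574 and 404 CPM in the libraries labelled Axin2- and 147, 181 and 217 CPM in those labelled Axin2+. The fractions were far apart in each mouse, with means of 483 ± 85.7 and 182 ± 35.1 CPM, and Tgfbr3 fell by 1.41 ± 0.20 on the log2 scale (edgeR adjusted p = 0.00287). Its adjusted p stayed below the threshold in all 17 other settings, up to 0.0414. Per kilobase it was the most abundant receptor in the libraries labelled Axin2-, at 73.8 ± 13.1 CPM per kb ahead of Tgfbr2 at 38.1 ± 8.59. In the libraries labelled Axin2+ Tgfbr2 (28.9 ± 9.75 CPM per kb) and Tgfbr3 (27.7 ± 5.36) differed by less than their spread. Bmpr1a came next in both fractions (21.4 ± 2.09 and 16.2 ± 1.62 CPM per kb), and Bmpr1b was the lowest of the 9 in both (0.556 ± 0.251 and 2.12 ± 0.186).

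The other receptors did not pass. Tgfbr2, the TGF-beta type II receptor, stood at 383, 310 and 242 against 327, 210 and 174 CPM, lower in each mouse but with overlapping fractions and a log2 difference of -0.40 ± 0.27 (edgeR adjusted p = 0.312). Tgfbr1, the matching type I receptor, had a log2 difference of 0.02 with a 95% interval from -0.39 to 0.42, and its sign turned under several settings. Bmpr2, the main BMP type II receptor, stood at 153, 183 and 150 against 118, 135 and 130 CPM. Those fractions did not overlap, yet its log2 difference of -0.34 ± 0.12 did not pass (edgeR adjusted p = 0.0815). Acvr1, a type I receptor of BMPs, had a log2 difference of -0.48 ± 0.20 (edgeR adjusted p = 0.108), and passed without the mouse 2 library labelled Axin2- (-0.65, adjusted p = 0.0298), in a range up to 0.375. Acvr2a, an activin type II receptor, stood at 28.4, 30.5 and 30.7 against 33.5, 34.1 and 35.4 CPM, without overlap but with a log2 difference of only 0.20 ± 0.12 (edgeR adjusted p = 0.242). Acvr2b, the other activin type II receptor, had a log2 difference of -0.37 (edgeR adjusted p = 0.322).

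**Figure D3:**
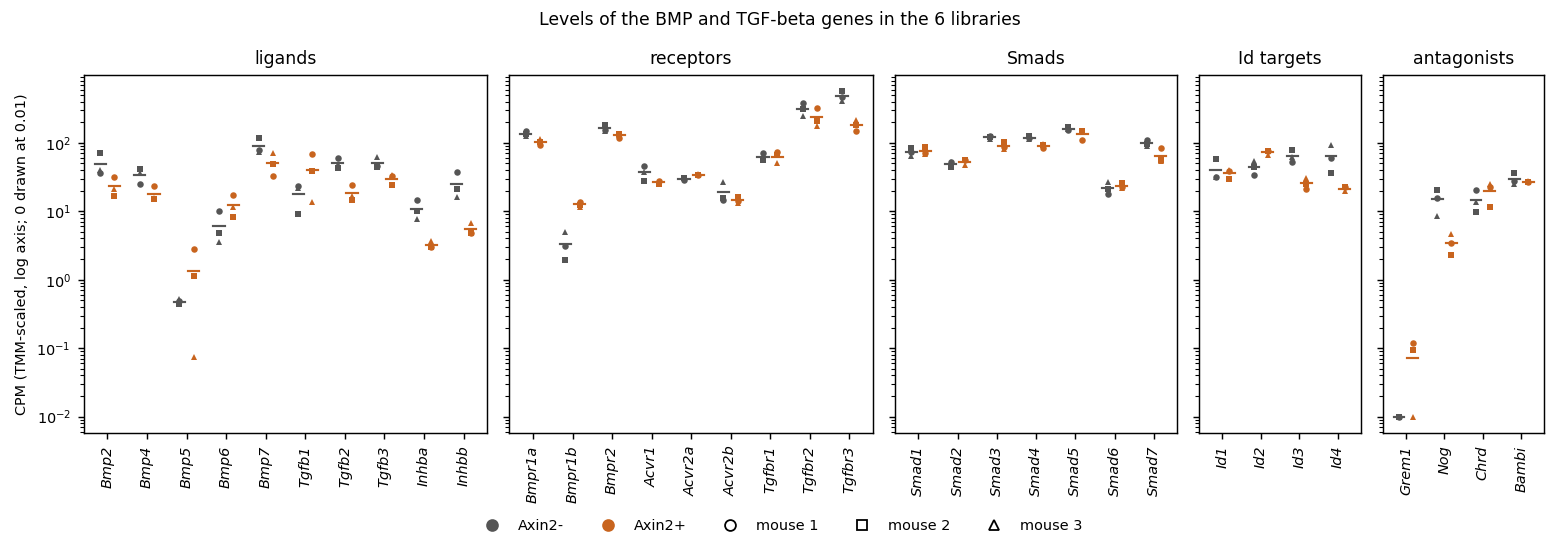
Level of each of the 34 genes (CPM, log axis, with 0 drawn at 0.01), grouped by role, with 1 point per library, colour for the label, shape for the mouse and a line for the mean of 3 libraries. Tgfbr3 separates at 404 to 574 CPM against 147 to 217 CPM, and Bmpr1b at 1.92 to 4.90 CPM against 11.7 to 13.8 CPM.

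Differences among the Smads were small, from -0.63 to 0.12 on the log2 scale. Of the 7, 3 fell (42.9%, beside 12.8% of all genes tested) and none rose, and all 3 calls depended on the setting. Smad7, the inhibitory Smad of the TGF-beta arm, stood at 111, 96.7 and 91.1 CPM in the libraries labelled Axin2- and 82.7, 55.7 and 54.1 CPM in those labelled Axin2+. The fractions did not overlap, and Smad7 fell by 0.63 ± 0.19 on the log2 scale (edgeR adjusted p = 0.0428). It did not pass with library size only (0.107), nor without the mouse 1 (0.144), 2 (0.0795) or 3 (0.0855) library labelled Axin2- or the mouse 2 (0.147) or 3 (0.110) library labelled Axin2+, nor without mouse 2 (0.217) or 3 (0.169), in a range from 0.00667 to 0.217. Smad4, the partner shared by both arms, stood at 117, 127 and 113 against 83.4, 93.4 and 96.0 CPM, and Smad3, an effector of TGF-beta and activin, at 124, 121 and 114 against 87.6, 102 and 80.0 CPM. In each the libraries labelled Axin2+ were all below the others, by a small margin relative to the level. Smad4 fell by 0.39 ± 0.11 (edgeR adjusted p = 0.0378) and Smad3 by 0.41 ± 0.12 (edgeR adjusted p = 0.0466), both on the log2 scale. Leaving out any 1 library, or any mouse, ended both calls, with an adjusted p without 1 library of 0.0597 to 0.113 for Smad4 and 0.0544 to 0.149 for Smad3. With the mouse block the adjusted p was 0.0657 for Smad4 and 0.0592 for Smad3, with no filter on low counts 0.0544 and 0.0603, and with library size only 0.243 and 0.216. Over all settings it ranged from 0.0234 to 0.243 for Smad4 and from 0.0296 to 0.252 for Smad3.

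For the remaining Smads the intervals bound the difference. Smad1, a BMP effector, stood at 72.3, 82.7 and 63.6 against 70.9, 87.2 and 68.7 CPM, with the libraries of each mouse close together. Its log2 difference was 0.05 with a 95% interval from -0.29 to 0.40 (edgeR adjusted p = 0.820). Smad2, an effector of the TGF-beta arm, had a log2 difference of 0.09 with an interval from -0.20 to 0.39 (edgeR adjusted p = 0.615). Smad5, another BMP effector, had 156, 172 and 157 against 110, 151 and 143 CPM, separate by a narrow gap and not called (log2 difference -0.26, edgeR adjusted p = 0.215). Smad6, the inhibitory Smad of the BMP arm, had a log2 difference of 0.12 (edgeR adjusted p = 0.679). Per kilobase, Smad4 was the most abundant Smad in both fractions, at 32.0 ± 1.97 and 24.5 ± 1.78 CPM per kb, while Smad7, Smad5 and Smad3 (22.0 ± 2.26, 21.8 ± 1.16 and 21.6 ± 0.979 in the libraries labelled Axin2-) could not be ordered beyond their spread.

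Of the 4 Id genes, which encode inhibitors of basic helix-loop-helix factors, 2 fell and 1 rose. Id3 (chr4:136143497-136145755, plus strand) stood at 52.8, 79.7 and 61.3 CPM in the libraries labelled Axin2- and 21.2, 25.1 and 30.4 CPM in those labelled Axin2+. The fractions were far apart, and Id3 fell by 1.34 ± 0.20 on the log2 scale (edgeR adjusted p = 0.00384, at most 0.0492 over 17 other settings). Id4 (chr13:48261228-48266026, plus strand) stood at 60.6, 36.7 and 91.9 against 22.3, 22.4 and 19.5 CPM. The libraries labelled Axin2+ were nearly level with each other and all below the widely spread others, and Id4 fell by 1.56 ± 0.31 (edgeR adjusted p = 0.0115, 0.0617 without mouse 1 and 0.0616 without mouse 3). Id2 ran the other way, at 34.3, 44.6 and 53.5 against 75.5, 76.0 and 66.6 CPM. All its libraries labelled Axin2+ were above the others, a 1.65-fold rise (log2 difference 0.72 ± 0.17 SE, edgeR adjusted p = 0.0223). The call of Id2 was lost without the mouse 2 (0.0533) library labelled Axin2- or the mouse 2 (0.0795) library labelled Axin2+, and without mouse 1 (0.0825) or 2 (0.153), in a range from 0.00488 to 0.153. Id1, the most studied BMP target of the family, stood at 31.3, 57.1 and 31.6 against 38.8, 29.2 and 39.6 CPM. It was higher in mice 1 and 3 and lower in mouse 2, and its log2 difference of -0.16 ± 0.27 did not pass (edgeR adjusted p = 0.699) and turned to 0.19 without the mouse 2 library labelled Axin2-.

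Per kilobase, the shares of Id2, Id3 and Id4 in the family differed without overlap, and the share of Id1 overlapped. The sum of the family differed by a narrow gap, read at TMM scaling only. The 4 genes summed to 86.3, 122 and 107 CPM per kb in the libraries labelled Axin2- and 82.0, 76.2 and 83.6 in those labelled Axin2+. Id2 took 16.3, 15.1 and 20.4% of that sum in the former and 37.7, 40.9 and 32.7% in the latter. Id3 took 34.2, 36.6 and 31.9% against 14.4, 18.4 and 20.3%. Id4 took 18.3, 7.84 and 22.2% against 7.07, 7.65 and 6.07%, with a narrow gap in mouse 2. None of these shares overlapped between the fractions, whereas that of Id1 did, at 31.3, 40.5 and 25.4% against 40.8, 33.0 and 40.9%. In the libraries labelled Axin2+ Id1 (30.9 ± 5.02 CPM per kb) and Id2 (29.8 ± 2.16) were level within their spread and above Id3 (14.3 ± 2.59) and Id4 (5.57 ± 0.427).

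**Figure D4:**
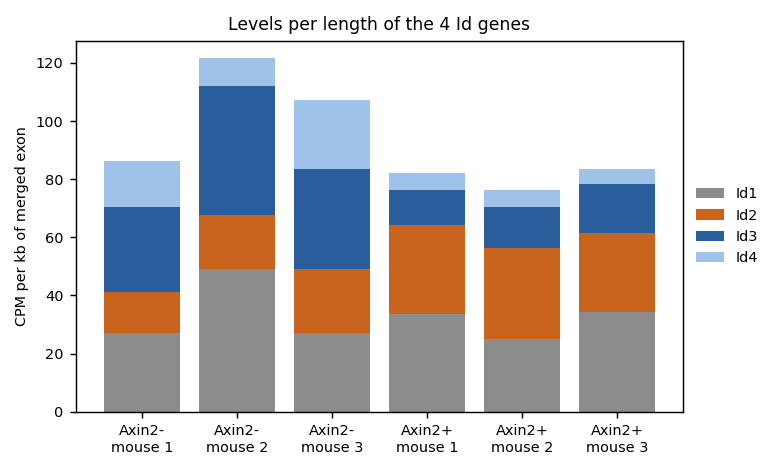
Stacked levels per kilobase of merged exon (CPM per kb) of Id1, Id2, Id3 and Id4, 1 bar per library. The Id2 section takes 15.1 to 20.4% of the bar in the libraries labelled Axin2- and 32.7 to 40.9% in those labelled Axin2+, and the Id3 and Id4 sections are thinner in all 3 bars labelled Axin2+.

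The window upstream of Id4 (chr13:48260866-48261115, plus strand, 75.6% G or C) is printed because Id4 is the Id gene of the promoter table whose window lies clear of annotated exons, and the 6 capitals mark its GGCGCC, which begins 148 bases upstream of the RefSeq start. The window of Id2, which rose, also held 1 GGCGCC, but 161 of its 250 bases lie in annotated exons. The window of Id3, which fell, held none, but all its 250 bases lie in annotated exons, inside the annotated gene. Sequence upstream of the annotated Id3 gene was therefore not searched.
Id4: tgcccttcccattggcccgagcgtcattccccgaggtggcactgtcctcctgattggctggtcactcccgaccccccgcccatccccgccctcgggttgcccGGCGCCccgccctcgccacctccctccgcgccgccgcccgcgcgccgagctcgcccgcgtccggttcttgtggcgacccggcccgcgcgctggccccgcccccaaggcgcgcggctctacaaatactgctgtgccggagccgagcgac

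Of the 3 antagonists tested, 1 passed (33.3%, beside 27.3% of all genes tested). Nog (chr11:89300638-89302332, minus strand), which encodes the BMP-binding protein Noggin, stood at 15.4, 20.6 and 8.56 CPM in the libraries labelled Axin2- and 3.47, 2.28 and 4.61 CPM in those labelled Axin2+. The fractions did not overlap, with mouse 3 the narrowest pair, and Nog fell by 2.11 ± 0.40 on the log2 scale (edgeR adjusted p = 0.00910, 0.0639 without mouse 1 and 0.0819 without mouse 2). Chrd, which encodes Chordin, another secreted BMP trap, stood at 20.1, 9.63 and 13.6 against 22.9, 11.4 and 24.9 CPM. It was higher in each mouse with overlapping fractions, and did not pass (log2 difference 0.45, edgeR adjusted p = 0.404). Bambi, a decoy receptor that lacks the kinase, stood at 27.8, 36.5 and 24.9 against 26.7, 26.7 and 27.7 CPM, and its difference of -0.14 did not pass (log2 scale, edgeR adjusted p = 0.588). Grem1, which encodes the BMP antagonist Gremlin, had no read in the 3 libraries labelled Axin2- and 7, 5 and 0 reads in those labelled Axin2+. These 12 reads came from mice 1 and 2 alone, and at this depth they give no firm measure of a difference.

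Other genes of the pathway, 83 from a list of further ligands, receptors, Smad partners, carriers and targets, were read for context. The list was drawn up with earlier results of these data known, so its shares are a description and not an independent result. Of 68 tested, 8 rose (11.8%, beside 14.5% of all genes tested) and 24 fell (35.3%, beside 12.8%), with a median log2 difference of -0.59 against -0.0077 over all genes tested. The share that rose was thus no higher than that over all genes. Without mouse 2 these counts were 5 and 13, and without mouse 1 they were 5 and 15. Secreted inhibitors and ligand carriers held the most falls, 11 of 20 with 1 rise, and further ligands fell for 6 of 13 with no rise. One of those ligands is so only in name: Bmp1, named after its values were seen, encodes a procollagen protease, and fell by 1.55 on the log2 scale (edgeR adjusted p = 0.00395). Other receptors and co-receptors gave 2 rises and 1 fall of 7, Smads and partners 1 rise and 2 falls of 11, and target genes 4 rises and 4 falls of 17.

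The genes with the smallest p that rose were led by homeobox genes known as BMP targets in several tissues. Msx1 stood at 22.4, 33.5 and 29.1 CPM in the libraries labelled Axin2- and 449, 618 and 570 CPM in those labelled Axin2+. Every library labelled Axin2+ was more than 10 times any of the others (log2 difference 4.27 ± 0.22 SE, edgeR adjusted p = 0.000192). Msx2, its close relative, stood at 0.253, 0.978 and 0.844 against 13.6, 15.4 and 15.8 CPM, and Dlx5 at 5.36, 11.8 and 7.56 against 142, 166 and 127 CPM. Neither overlapped between the fractions, with log2 differences of 4.42 ± 0.49 (edgeR adjusted p = 0.00113) and 4.14 ± 0.31 (edgeR adjusted p = 0.000349). Tgfbi, an extracellular matrix gene named for its induction by TGF-beta, stood at 246, 370 and 402 against 993, 1882 and 1296 CPM, a rise of 2.04 ± 0.30 on the log2 scale (edgeR adjusted p = 0.00322). Tgif1, a repressor that binds Smads, rose from 26.0 ± 1.57 to 53.4 ± 5.42 CPM (edgeR adjusted p = 0.00185), and the activin type I receptor Acvr1b from 27.6 ± 0.977 to 42.5 ± 1.77 CPM (edgeR adjusted p = 0.00840, and 0.0535, 0.0891 and 0.0531 without mouse 1, 2 and 3). All 18 epithelial markers moved the same way, by 2.69 to 4.31 on the log2 scale, and their part in these rises was not tested.

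The 6 falls with the smallest p were those of Rgma, Ltbp1, Snai2, Lrrc32, Htra3 and Smad9. Rgma, a BMP co-receptor, went from 221 ± 17.4 to 56.4 ± 8.44 CPM (log2 difference -1.97, edgeR adjusted p = 0.000313). The latent TGF-beta carriers Ltbp1 (145 ± 23.0 to 33.4 ± 6.91 CPM, edgeR adjusted p = 0.000611) and Lrrc32 (62.0 ± 19.6 to 13.8 ± 1.41 CPM, edgeR adjusted p = 0.00106) fell. Lrrc32 and Lrrc33, which both tether latent TGF-beta to cell surfaces, thus had opposite signs, the call of Lrrc33 being the weaker held. Smad9, the third BMP effector Smad, fell from 18.3 ± 5.31 to 5.45 ± 0.494 CPM (log2 difference -1.75, edgeR adjusted p = 0.00294), where the log2 differences of Smad1 and Smad5 were 0.05 and -0.26 and did not pass. Snai2, a mesenchymal transcription factor induced by TGF-beta, fell by 2.32 on the log2 scale (edgeR adjusted p = 0.000718), and the protease Htra3 by 2.00 (edgeR adjusted p = 0.00208). Fibroblast and muscle markers, 12 of 15 and 16 of 18 of them lower in the libraries labelled Axin2+, moved the same way, and their part in these falls was not tested.

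**Figure D5:**
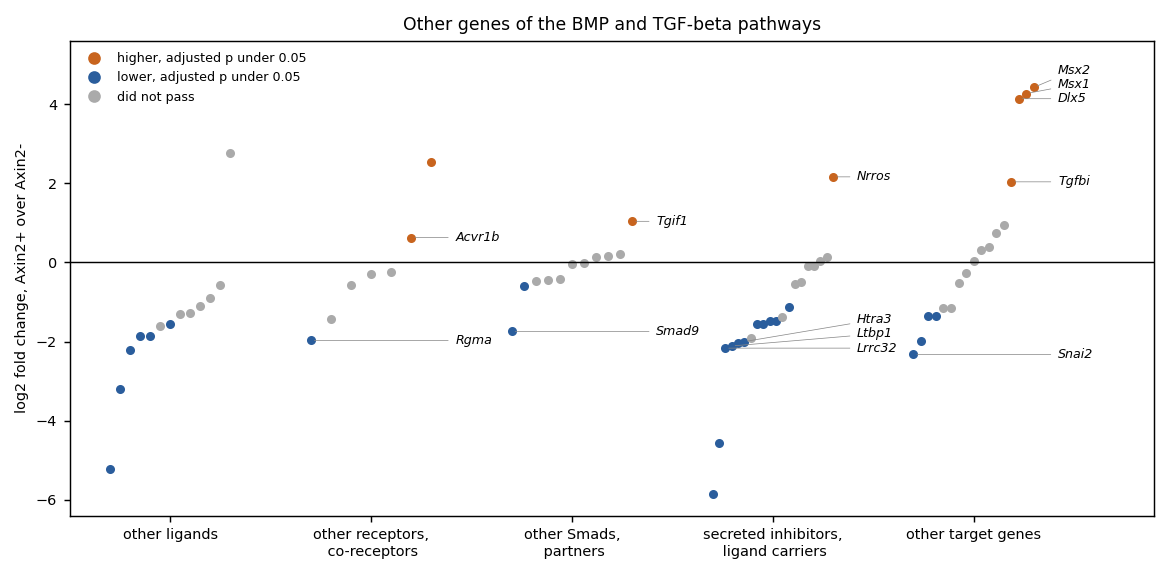
Log2 difference (libraries labelled Axin2+ minus libraries labelled Axin2-) of 68 further genes of the pathway, 1 point per gene, by class and coloured by call. Msx1, Msx2 and Dlx5 stand above 4, and most of the 24 genes called lower are ligands, inhibitors and ligand carriers.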

How the data were processed

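Gene counts of 6 libraries from 3 mice were compared between the fractions labelled Axin2+ and Axin2-. The values the authors deposited are raw read counts per gene, for which the submitters' processing notes name STAR 2.5.3a, featureCounts 1.5.3 and mm10. The strand setting is not given in the sources used here, and of the 34 genes 16 overlap another annotated gene, 6 a protein-coding one (Bmp4, Bmp6, Tgfb3, Acvr1, Acvr2a and Chrd). The authors' deposited comparison table gives log2 fold changes, p-values and FDR values.

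Counts were fitted in R 4.3.3 with edgeR 4.0.16 (filterByExpr, TMM, robust quasi-likelihood F test), with Benjamini-Hochberg adjustment over the 16896 genes that were kept and a threshold of 0.05. The SE is the absolute log2 difference divided by the square root of F. The fit was also run on simulated counts with few changed genes, as many up as down, and dispersions taken from these data. Such counts cannot test the dependence on scaling. DESeq2 1.42.0 was an alternative. Levels per kilobase use merged exons of GENCODE M21 (GRCm38), which may not be the counted annotation. The labels number libraries by mouse and also speak of pooling cells, so p-values may measure only the spread between libraries. Mouse numbers in the labels were read as pairs, and deviations from the fraction means correlated at 0.27, 0.01 and -0.07 for mice 1, 2 and 3. Libraries with unlike numbers correlated at -0.24 to 0.25, so these values do not establish the pairing.

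The genes and lists were chosen with earlier results of these data known. Named are all 34 genes, Axin2, in each direction the 6 other pathway genes with the smallest p among those called with a mean of at least 1 CPM, and 2 markers per cell type by level, of which some are described. Leaving out a whole mouse was chosen after seeing the data.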

Additional observations from a re-analysis of the deposited data

How the results depend on the processing

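Scaling by library size only moved the median of all genes by 0.17 on the log2 scale and the calls from 2447 higher and 2171 lower to 3253 higher and 1571 lower. With it 8 of the 33 genes fell in place of 13, their median log2 difference was -0.22 in place of -0.39, and the differences of Id1 (0.0077) and Bambi (0.028) changed sign. Tgfbr1 turned to -0.034 with upper-quartile scaling and to -0.0027 with a filter of 1 CPM. DESeq2 called 15 of the genes lower. With mouse as a replicate block 3 rose and 9 fell, and no other call of the 33 changed than those given with the results.

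With 1 library or 1 mouse left out, genes called over the whole table numbered 1711 to 4114 in place of 4618 (1711 without mouse 2, 2522 without mouse 1, 2686 without mouse 3 and 2544 without the mouse 2 library labelled Axin2+). The 33 genes gave 0 to 3 rises and 4 to 11 falls, and the other pathway genes 5 to 8 rises and 13 to 28 falls. The median log2 difference was 2.06 to 3.08 for the mesothelial markers, 1.02 (without mouse 2) to 2.02 for the endothelial ones, with 1.83 over all libraries, and 2.35 to 4.07 for the macrophage and leukocyte ones. Log2 differences that changed sign ranged from -0.58 to 0.032 for Acvr2b, -0.10 to 0.17 for Tgfbr1, -0.059 to 0.16 for Smad1, -0.0062 to 0.21 for Smad2, -0.36 to 0.32 for Id1, -0.25 to 0.047 for Bambi and -0.16 to 1.21 for the leukocyte marker Cd74. The cause of these changes was not tested, beyond the fewer libraries in each fit. Depth limits Grem1 and Bmp5, with as few as 0 and 4 reads per library.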
